A study of Homo sapiens with 24 samples.

Results

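The genes described here were 46 immediate-early and fast stress response genes, out of 35993 genes in the count table of 2 human bladder cancer cell lines. They were chosen by symbol from knowledge of the first wave of transcription after a stimulus: transcription factors of the FOS, JUN, EGR, NR4A and KLF families, ID proteins, RNA decay factors, kinases, phosphatases and survival factors. The choice was made with some results of these libraries known, since KLF10, CSRNP1 and NR4A1 had already been seen among the genes most increased over parental cells. Their differences from parental cells are therefore given as values with no test, and where a count takes them in, that is said beside it. All 46 symbols had a row in the table. Enough counts for testing were present for 46 in J82 and for 45 in RT-112, where DUSP2 fell under the filter on low counts.

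RNA was sequenced from J82 and RT-112, lines grown from bladder carcinomas, and from 3 lines newly established from each. The derived lines were defined by the CD44 receptor on the cell: CD44 Low with little CD44, CD44 High with much CD44, and CD44v6 with much of the splice form that holds variant exon v6. CD44 is a surface receptor for hyaluronan, and the series asked how CD44v6 relates to aggressiveness and chemoresistance. Each of the 8 groups (parental, CD44 Low, CD44 High and CD44v6 cells, in J82 and in RT-112) had 3 libraries, described as biological replicates, and the labels name no drug or other agent for any group. The labels do not say how the derived lines were separated or whether each is 1 clone, so the process of establishing a line cannot be told apart from its CD44 level in a comparison with parental cells.

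Immediate-early genes are transcribed within minutes of a growth factor, cytokine or stress signal, from factors already present in the cell and without new protein synthesis. FOS and JUN family proteins pair through leucine zippers to form the AP-1 factor, while EGR, NR4A and KLF proteins bind other promoter elements, and the wave is ended by its own products, such as the phosphatase DUSP1 and the RNA decay factors of the ZFP36 family. Many of these transcripts are short-lived, so their level at harvest follows recent signalling and handling of the cells. In bladder epithelium and its tumours, the pathway lies downstream of receptors such as EGFR and FGFR3.

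Promoter sequence was matched for 35 of the 46 members in a RefSeq table (assembly GRCh38.p14, from 250 bases before to 50 bases after each gene's start). The files' own reads were placed on GRCh37, so these coordinates belong to RefSeq and to no read. On both strands, the element TGACGTCA (the full cAMP response element, bound by CREB and ATF proteins) was found in 5 of the 35, or 14.3%, against 1.98% of all 27305 promoters of the table. CArG boxes, the sites read by SRF, were found in 2, or 5.71%, against 1.29%. The zinc finger site GCGNGGGCG of EGR proteins was found in 9, or 25.7%, against 9.28%, and TATAAA in 10, or 28.6%, against 12%. The AP-1 element TGANTCA was found in FOSL2 alone, 2.86% against 7.76%, and CCGGAAG, the core read by ETS factors, in 1, 2.86% against 10.7%. These motifs can overlap one another, and a match is a description of the letters in this window.

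Promoter stretches of 100 bases are shown 5′ to 3′ on the gene's strand for the 2 members with CArG boxes and the 5 with the full cAMP response element. These 7 include members that were called higher than in parental cells in some derived line of both J82 and RT-112 (MAFF, DUSP1, PPP1R15A, JUND) and 1, SRF, that was called in no comparison within a line. Capitals mark the CArG boxes in the first 2 and TGACGTCA in the others.
EGR1 (chr5:138465329-138465428, plus strand): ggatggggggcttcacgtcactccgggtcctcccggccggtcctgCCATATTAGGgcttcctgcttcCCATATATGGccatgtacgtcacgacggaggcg
SRF (chr6:43171209-43171308, plus strand): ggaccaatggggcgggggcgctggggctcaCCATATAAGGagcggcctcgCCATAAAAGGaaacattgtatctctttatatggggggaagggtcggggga
MAFF (chr22:38201864-38201963, plus strand): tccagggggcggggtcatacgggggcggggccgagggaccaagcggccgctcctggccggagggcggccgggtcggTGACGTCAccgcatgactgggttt
DUSP1 (chr5:172771246-172771345, minus strand): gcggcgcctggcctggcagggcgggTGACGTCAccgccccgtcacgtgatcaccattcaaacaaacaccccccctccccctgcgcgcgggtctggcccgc
IFRD1 (chr7:112450378-112450477, plus strand): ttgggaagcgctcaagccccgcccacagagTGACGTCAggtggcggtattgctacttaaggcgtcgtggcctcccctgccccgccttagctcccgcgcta
PPP1R15A (chr19:48872291-48872390, plus strand): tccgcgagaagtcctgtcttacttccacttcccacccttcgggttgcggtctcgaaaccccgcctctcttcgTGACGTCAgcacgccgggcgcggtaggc
JUND (chr19:18281753-18281852, minus strand): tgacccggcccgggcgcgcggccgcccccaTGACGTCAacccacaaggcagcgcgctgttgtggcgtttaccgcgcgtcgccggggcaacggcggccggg

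Total counts per library ranged from 16752825 to 24419670. No replicate pair was identical, and chi-square per degree of freedom between replicates was 6.03 to 58.7, above the counting noise in each pair. CD44 transcript followed the labels: 444 ± 46.4 CPM (counts scaled to the library's total after TMM normalisation; mean ± SD, n = 3) in J82 parental, 279 ± 27.9 in CD44 Low, 727 ± 32.1 in CD44 High and 799 ± 241 in CD44v6 cells, and 317 ± 27.2, 141 ± 18.2, 419.96 ± 69.99 and 448 ± 68.99 in the same order in RT-112. These counts do not separate the v6 form. RT-112 expressed the epithelial markers CDH1 (group means 307 to 355 CPM) and EPCAM (286 to 409), while J82 was near 0 for both (0.508 to 5.71 and 1.11 to 2.30). The epithelial keratins were expressed in both lines, KRT8 at group means of 4166 to 4744 CPM in J82 and 2110.5 to 2979 in RT-112, KRT18 at 1545 to 1835 and 1299 to 1508, KRT7 at 1047 to 2824 and 3969 to 4823, and KRT19 at 278 to 379 and 2131 to 3389.8. The leukocyte markers CD3E, PTPRC and CD14 had group means of at most 1.41 CPM. Of the 5 fibroblast markers, DCN was at 0 in every library, while COL3A1 in J82 (group means 411 to 1106 CPM) and LUM in RT-112 (141 to 232 CPM) were expressed. The J82 CD44 Low replicate 2 library stood apart, with 0.946% of its counts from 13 mitochondrial genes against 0.207 to 0.474% in the other J82 libraries, as did RT-112 CD44 Low replicates 1 and 2 (0.297 and 0.315% against 0.589 to 0.733%). J82 CD44v6 replicate 2 held 1.88% of its counts in the nuclear RNAs MALAT1 and NEAT1, against 0.733 to 1.57% in the other J82 libraries. What part these differences had in any result was not tested.

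In J82, 21, 19 and 19 of the 43 early genes other than KLF10, CSRNP1 and NR4A1 were called higher than in parental cells in CD44 Low, CD44 High and CD44v6. They took in AP-1 subunits (FOS, FOSB, JUN, JUNB), EGR1, NR4A2 and feedback genes such as DUSP1 and TRIB1, and none was called lower. Calls are from edgeR's quasi-likelihood test at an adjusted p (Benjamini-Hochberg over all genes tested in the line) under 0.05. Whether the libraries of 2 groups overlap is also given for many members below. How often the libraries of any gene separate so was not counted, and without a call no difference can be read from it. Of all genes, 2.26% were called higher and 3.08% lower in CD44 Low cells, 1.71% and 1.23% in CD44 High cells, and 1.86% and 0.74% in CD44v6 cells. With the 3 genes known from earlier, whose calls are no evidence, each count was 22 of 46. The median log2 fold change of all 46 members was 0.98, 0.98 and 0.99, against 0.0006, 0.003 and 0.0099 for all genes. These medians also take in the 3 genes known from earlier. These 3 comparisons share the parental libraries, so they are not independent of one another. The counts rest on those libraries: of all 46, without parental replicate 1 they were 15, 10 and 7, and without parental replicate 2 they were 14, 13 and 9, while without CD44 High replicate 2 the second was 14.

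In RT-112 fewer early genes were called, again all of them higher than in parental cells, with DUSP1, TRIB1 and PPP1R15A in each derived line. Of the 42 tested other than KLF10, CSRNP1 and NR4A1, 9 were called higher and 0 lower in CD44 Low (all genes 1.33% and 1.87%), 8 and 0 in CD44 High (0.249% and 0.262%), and 10 and 0 in CD44v6 cells (0.288% and 0.326%). With those 3 the counts were 11, 10 and 12 of 45. Median log2 fold changes of the 45 members, those 3 included, were 0.35, 0.42 and 0.46, against -0.0091, 0.0027 and 0.00014 for all genes. Single libraries weighed heavily: without parental replicate 2 the counts of the 45 were 2, 2 and 4, and without parental replicate 3 they were 5, 5 and 4. Without CD44 Low replicate 1 or 2 the first count was 5, and without CD44 High replicate 1 the second was 3. The third was 6, 7 and 6 without CD44v6 replicate 1, 2 and 3. Since the whole RNA of each culture was measured, more expressing cells and more RNA per cell cannot be told apart here or below.

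**Figure D1:**
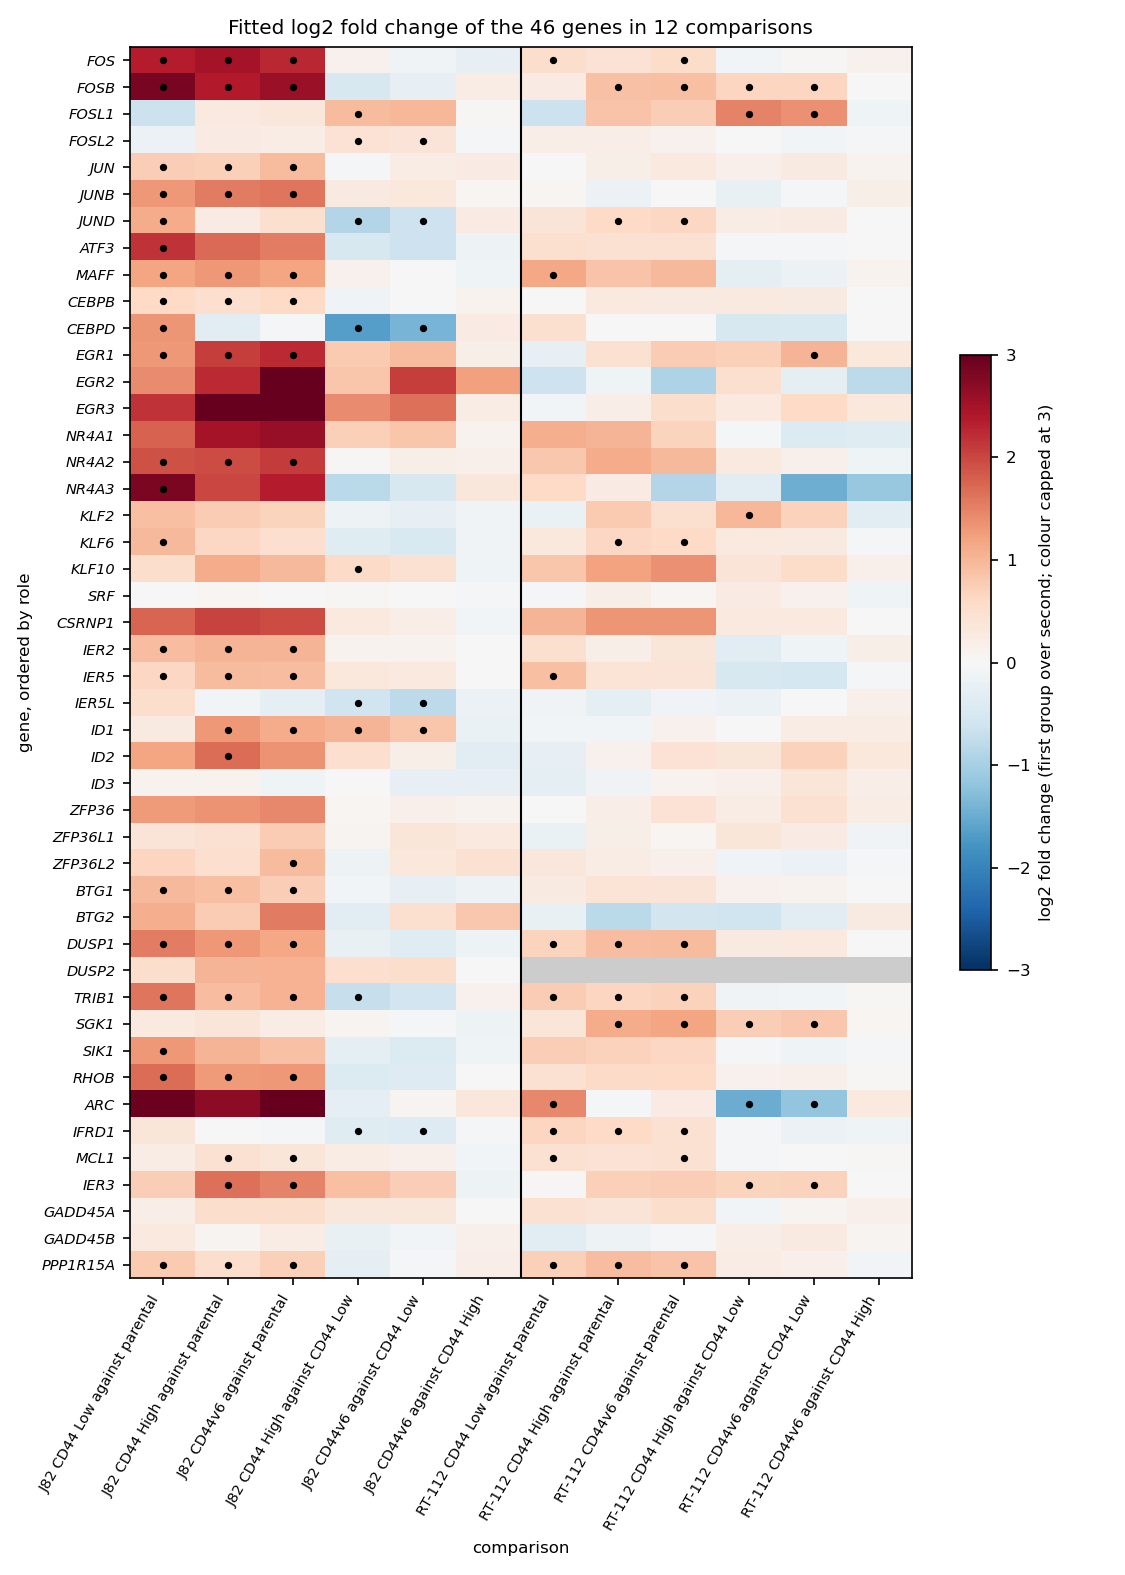
Fitted log2 fold change of each of the 46 genes (vertical axis, ordered by role) in the 12 comparisons within lines (horizontal axis), with a black dot where the gene was called (none drawn for KLF10, CSRNP1 and NR4A1 against parental cells) and grey where DUSP2 was not tested. Most dots lie in the 3 left columns of each line (21, 19 and 19 in J82, 9, 8 and 10 in RT-112), and the columns comparing CD44v6 with CD44 High hold none.

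FOS and FOSB, the FOS proteins made first after a stimulus, were called higher in each derived J82 line. FOS was at 30.3, 24.9 and 47.7 CPM in parental and 128, 177 and 225 in CD44 Low cells. FOS in CD44 High cells was at 185, 149 and 244 CPM and in CD44v6 cells at 136, 146 and 207, given for replicates 1, 2 and 3 in that order here and below. Every derived library lay above every parental one, and the log2 fold changes over parental cells were 2.36 (SE 0.28, adjusted p = 0.0004), 2.49 (SE 0.28, adjusted p = 0.000826) and 2.25 (SE 0.28, adjusted p = 0.00292). In RT-112, FOS was at 299, 243 and 229 CPM in parental and 323, 408 and 404 in CD44 Low cells. FOS in CD44 High cells was at 345, 359 and 345 CPM and in CD44v6 cells at 388, 408 and 379. The derived libraries again all lay above the parental ones, by 0.52 (SE 0.11, adjusted p = 0.0256) in CD44 Low and 0.56 (SE 0.11, adjusted p = 0.0434) in CD44v6, while the 0.44 (SE 0.11, adjusted p = 0.136) of CD44 High did not pass. FOSB in J82 was at 14.5, 6.96 and 20.6 CPM in parental and 95.6, 90.04 and 119 in CD44 Low cells. FOSB in CD44 High cells was at 64.8, 53.6 and 99.3 CPM and in CD44v6 cells at 63.02, 116 and 76.6. Its changes were 2.85 (SE 0.35, adjusted p = 0.000496), 2.37 (SE 0.34, adjusted p = 0.00325) and 2.60 (SE 0.35, adjusted p = 0.00358), with no overlap between derived and parental libraries. In RT-112, FOSB was at 68.5, 55.3 and 55.9 CPM in parental and 56.6, 73.4 and 86.9 in CD44 Low cells. FOSB in CD44 High cells was at 118, 119.7 and 94.9 CPM and in CD44v6 cells at 111, 123 and 109.5. CD44 Low overlapped parental cells there (0.24 (SE 0.15, adjusted p = 0.429)), and CD44 High and CD44v6 lay above both, by 0.89 (SE 0.15, adjusted p = 0.0209) and 0.89 (SE 0.15, adjusted p = 0.0189) over parental cells and by 0.65 (SE 0.15, adjusted p = 0.0122) and 0.66 (SE 0.15, adjusted p = 0.0129) over CD44 Low. FOS and FOSB kept their J82 calls in all 6 fits that each left out 1 library of the pair of groups. In RT-112, FOS kept its CD44 Low and CD44v6 calls in 2 and 1 of 6, lost without parental 2 or 3 or CD44 Low 2 or 3 in the first and without parental 2 or 3 or CD44v6 1, 2 or 3 in the second (adjusted p up to 0.1302 and 0.222).

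FOSL1 and FOSL2 encode the FRA proteins, which build up later than FOS and lack its strong activation domain. Neither was called against parental cells in any derived line. FOSL1 was instead called in CD44 High against CD44 Low in both lines, with a positive log2 fold change in each. It was the 1 of 45 members called in the same direction in both, beside 390 of 14237 genes. This count does not set the members apart from all genes. FOSL1 in RT-112 was at 18.6, 14.5 and 12.6 CPM in parental and 7.63, 10.9 and 11.6 in CD44 Low cells. FOSL1 in CD44 High cells was at 25.2, 35.03 and 23.03 CPM and in CD44v6 cells at 27.7, 27.8 and 22.9. CD44 Low lay below all other groups, and CD44 High and CD44v6 were higher than CD44 Low by 1.499 (SE 0.20, adjusted p = 0.000537) and 1.38 (SE 0.20, adjusted p = 0.00102), calls kept in all 6 left-out fits. In J82, FOSL1 was at 144, 109 and 127 CPM in parental and 56.6, 69.7 and 116 in CD44 Low cells. FOSL1 in CD44 High cells was at 113, 139 and 215 CPM and in CD44v6 cells at 105, 209 and 166. The groups overlapped at single libraries, and CD44 High was higher than CD44 Low by 0.95 (SE 0.30, adjusted p = 0.0466), a call lost without CD44 Low 1 or 2 or CD44 High 2 or 3 (adjusted p up to 0.176), while CD44v6 differed by 0.99 (SE 0.30, adjusted p = 0.0548). FOSL2 in J82 was at 56.3, 53.9 and 55.2 CPM in parental and 47.9, 50.7 and 48.3 in CD44 Low cells. FOSL2 in CD44 High cells was at 54.8, 66.6 and 75.6 CPM and in CD44v6 cells at 60.2, 70.9 and 61.7. CD44 Low held the lowest 3 values, and CD44 High and CD44v6 were higher than CD44 Low by 0.43 (SE 0.11, adjusted p = 0.0194) and 0.40 (SE 0.11, adjusted p = 0.03902). Its calls were kept in 3 and 1 of 6 fits, the first lost without CD44 Low 1 or CD44 High 2 or 3 and the second without CD44 Low 1, 2 or 3 or CD44v6 1 or 2. In RT-112, FOSL2 ranged from 101 to 169 CPM over the 12 libraries and was called in no comparison.

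The JUN proteins are the partners of FOS in AP-1. JUN in J82 was at 272, 282 and 272 CPM in parental and 522, 359 and 498 in CD44 Low cells. JUN in CD44 High cells was at 520.1, 332 and 491 CPM and in CD44v6 cells at 558, 492 and 550.2, and all 9 derived libraries lay above the parental ones. Its changes were 0.74 (SE 0.16, adjusted p = 0.0205), 0.71 (SE 0.16, adjusted p = 0.03498) and 0.96 (SE 0.16, adjusted p = 0.0119), kept in 1, 1 and 3 of 6 left-out fits, since leaving out any 1 parental library ended each call (adjusted p up to 0.09504, 0.1501 and 0.0897). In RT-112, JUN was at 178, 299.7 and 269.7 CPM in parental and 220.04, 296 and 258 in CD44 Low cells. JUN in CD44 High cells was at 304, 272 and 269 CPM and in CD44v6 cells at 255, 305 and 382. All groups overlapped there, and no comparison passed. JUNB in J82 was at 34.9, 37.1 and 38.6 CPM in parental and 62.7, 103 and 105 in CD44 Low cells. JUNB in CD44 High cells was at 86.7, 121 and 116 CPM and in CD44v6 cells at 87.8, 119.9 and 128. Derived libraries did not overlap parental ones, with changes of 1.29 (SE 0.20, adjusted p = 0.00229), 1.55 (SE 0.20, adjusted p = 0.00162) and 1.60 (SE 0.20, adjusted p = 0.00292), each kept in all 6 left-out fits. In RT-112 JUNB was at 171, 199 and 186 CPM in parental and 189.8, 223 and 181 in CD44 Low cells. JUNB in CD44 High cells was at 136, 207 and 155 CPM and in CD44v6 cells at 192, 211 and 173, with the 4 groups overlapping and log2 differences from parental cells of 0.06, -0.16 and 0.011, none called. In the GENCODE annotation exons of JUNB overlap those of HOOK2 on the opposite strand, and because no source used here says whether counting used strand, their reads cannot be told apart.

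JUND, the JUN protein that is made in resting cells too and can restrain growth, was highest in CD44 Low cells in J82. Its libraries were at 88.2, 80.7 and 81.5 CPM in parental and 182, 179 and 182 in CD44 Low cells. JUND in CD44 High cells was at 93.8, 100.5 and 100.3 CPM and in CD44v6 cells at 109.99, 146 and 94.9. CD44 Low was higher than parental cells by 1.11 (SE 0.13, adjusted p = 0.0003), and CD44 High and CD44v6 lay below it by -0.88 (SE 0.12, adjusted p = 0.000418) and -0.63 (SE 0.12, adjusted p = 0.00626) with no overlap. All 3 calls held in all 6 left-out fits. In RT-112 JUND was at 73.6, 63.4 and 63.8 CPM in parental and 94.03, 90.6 and 83.4 in CD44 Low cells. JUND in CD44 High cells was at 92.4, 119 and 94.6 CPM and in CD44v6 cells at 109.6, 99.8 and 109. There CD44 High and CD44v6 were higher than parental cells by 0.60 (SE 0.10, adjusted p = 0.0193) and 0.62 (SE 0.10, adjusted p = 0.0153), both lost without parental 2 or 3 and in 2 more fits each (adjusted p up to 0.179 and 0.125), while CD44 High differed from CD44 Low by 0.22 (SE 0.10, adjusted p = 0.152). The contrast of CD44 High with CD44 Low differed between the lines by -1.07 (SE 0.17, adjusted p = 0.000285), J82 minus RT-112.

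Other leucine zipper factors included ATF3, a stress-induced member of the ATF/CREB family, MAFF, a small MAF protein, and CEBPB and CEBPD of the C/EBP family. ATF3 in J82 was at 23.6, 25.03 and 24.8 CPM in parental and 57.6, 141 and 133 in CD44 Low cells. ATF3 in CD44 High cells was at 34.9, 107 and 94.9 CPM and in CD44v6 cells at 33.4, 87.9 and 93.1. Replicate 1 was the lowest library in each derived group, yet all 9 lay above the parental libraries, and only CD44 Low was called, 2.17 (SE 0.45, adjusted p = 0.0147), against 1.69 (SE 0.45, adjusted p = 0.06496) and 1.54 (SE 0.45, adjusted p = 0.0882). That call was kept in 2 of 6 left-out fits, lost without parental 1, 2 or 3 or CD44 Low 2 (adjusted p up to 0.0714). In RT-112 ATF3 was at 219, 143 and 126 CPM in parental and 236, 240.1 and 227 in CD44 Low cells. ATF3 in CD44 High cells was at 191, 251 and 229.7 CPM and in CD44v6 cells at 260.2, 250.3 and 183, with no comparison called. MAFF in J82 was at 24.02, 23.2 and 25.5 CPM in parental and 37.6, 62.8 and 66.2 in CD44 Low cells. MAFF in CD44 High cells was at 34.7, 78.8 and 66.5 CPM and in CD44v6 cells at 38.5, 64.7 and 62.97, again lowest in replicate 1 of each derived line. Its changes were 1.19 (SE 0.29, adjusted p = 0.0313), 1.31 (SE 0.29, adjusted p = 0.0268) and 1.19 (SE 0.29, adjusted p = 0.0482), each kept in 1 of 6 left-out fits (adjusted p up to 0.1296, 0.138 and 0.187), and ended by leaving out any 1 parental library. In RT-112 MAFF was at 40.1, 31.9 and 33.5 CPM in parental and 101, 83.1 and 55.98 in CD44 Low cells. MAFF in CD44 High cells was at 58.2, 90.1 and 44.7 CPM and in CD44v6 cells at 79.2, 61.1 and 71.9. All derived libraries lay above the parental ones, and CD44 Low was called, 1.15 (SE 0.24, adjusted p = 0.0207), but not without parental 1, 2 or 3 or CD44 Low 1 or 2 (adjusted p up to 0.107).

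CEBPB in J82 was at 108, 95.5 and 118 CPM in parental and 163, 163 and 160.3 in CD44 Low cells. CEBPB in CD44 High cells was at 149, 154 and 151 CPM and in CD44v6 cells at 164, 176 and 149. Derived and parental libraries did not overlap, and the changes were 0.60 (SE 0.091, adjusted p = 0.00229), 0.50 (SE 0.091, adjusted p = 0.0111) and 0.61 (SE 0.091, adjusted p = 0.00691), kept in 6, 3 and 5 of 6 left-out fits, the second lost without parental 1 or 2 or CD44 High 2 and the third without parental 1 (adjusted p up to 0.0665 and 0.0519). In RT-112 CEBPB ranged from 48.8 to 90.5 CPM and was not called. CEBPD, which marks acute-phase and growth-arrest responses, was highest in CD44 Low cells in J82. There it was at 17.3, 17.96 and 19.004 CPM in parental and 39.5, 51.2 and 46.4 in CD44 Low cells. CEBPD in CD44 High cells was at 14.1, 16.1 and 13.3 CPM and in CD44v6 cells at 16.4, 19.3 and 16.2. CD44 Low was higher than parental cells by 1.33 (SE 0.12, adjusted p = 0.000101), and CD44 High and CD44v6 were lower than CD44 Low by -1.65 (SE 0.12, adjusted p = 1.89e-06) and -1.40 (SE 0.12, adjusted p = 1.08e-05), near the parental level. Each of these calls held in all 6 left-out fits. In RT-112 CEBPD was at 23.4, 17.3 and 15.8 CPM in parental and 29.2, 27.8 and 23.3 in CD44 Low cells. CEBPD in CD44 High cells was at 19.04, 16.4 and 20.8 CPM and in CD44v6 cells at 23.6, 20.2 and 14.9, where CD44 High lay below CD44 Low without overlap but did not pass, -0.48 (SE 0.18, adjusted p = 0.0949). The difference between the lines in this contrast was -1.14 (SE 0.23, adjusted p = 0.00257).

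EGR1 is a zinc finger factor switched on through SRF and ETS factors at its promoter, the one shown above with 2 CArG boxes. In J82 it was at 16.1, 11.7 and 11.7 CPM in parental and 32.1, 21.9 and 44.2 in CD44 Low cells. EGR1 in CD44 High cells was at 53.1, 37.96 and 76.4 CPM and in CD44v6 cells at 46.2, 80.2 and 62.2. All derived libraries lay above the parental ones, with changes of 1.30 (SE 0.30, adjusted p = 0.0236), 2.08 (SE 0.30, adjusted p = 0.00303) and 2.25 (SE 0.30, adjusted p = 0.00358). The last 2 held in all 6 left-out fits, and the first was lost without parental 2 or 3 or CD44 Low 1 or 3 (adjusted p up to 0.115). In RT-112 EGR1 was at 11.1, 12.9 and 9.42 CPM in parental and 7.503, 9.81 and 11.6 in CD44 Low cells. EGR1 in CD44 High cells was at 10.99, 24.4 and 11.01 CPM and in CD44v6 cells at 18.7, 24.7 and 15.3. CD44v6 lay above CD44 Low without overlap, 1.02 (SE 0.29, adjusted p = 0.0313), a call lost without CD44 Low 1 or 2 or CD44v6 1 or 2 (adjusted p up to 0.122), and no derived line was called against parental cells. EGR2 and EGR3 were low, at most 2.08 and 2.20 CPM in any library, and were called in no comparison. EGR3 was at 0 to 0.314 CPM in J82 parental and 0.873 to 2.201 CPM in J82 CD44v6 libraries, and EGR2 at 0 to 0.164 and 0.535 to 2.08 CPM.

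The NR4A genes encode orphan nuclear receptors that act without a known natural ligand. NR4A1 in J82 was at 2.76, 1.698 and 2.72 CPM in parental and 4.45, 7.88 and 12.4 in CD44 Low cells. NR4A1 in CD44 High cells was at 5.93, 10.3 and 24.6 CPM and in CD44v6 cells at 5.53, 14.99 and 23.7. Replicate 1 was the lowest and replicate 3 the highest in each derived line, and the log2 differences from parental cells were 1.77 (SE 0.60), 2.49 (SE 0.60) and 2.61 (SE 0.60), given with no test. In RT-112 NR4A1 was at 4.31, 2.85 and 2.65 CPM in parental and 10.03, 6.62 and 4.498 in CD44 Low cells. NR4A1 in CD44 High cells was at 4.35, 11.1 and 4.55 CPM and in CD44v6 cells at 7.69, 3.97 and 4.21, with differences of 1.08 (SE 0.40), 1.02 (SE 0.40) and 0.67 (SE 0.41). An antisense transcript overlaps its exons. NR4A2 in J82 was at 4.18, 4.16 and 6.07 CPM in parental and 15.3, 19.3 and 19.7 in CD44 Low cells. NR4A2 in CD44 High cells was at 12.6, 18.6 and 24.5 CPM and in CD44v6 cells at 12.3, 27.9 and 21.7. Derived libraries lay wholly above parental ones, with changes of 1.91 (SE 0.30, adjusted p = 0.00305), 1.95 (SE 0.30, adjusted p = 0.00427) and 2.10 (SE 0.30, adjusted p = 0.00518), and 1 left-out fit ended 1 of these calls, CD44v6 without parental 1 (adjusted p = 0.0519). In RT-112 NR4A2 was at 7.76, 7.85 and 4.64 CPM in parental and 8.32, 13.1 and 15.1 in CD44 Low cells. NR4A2 in CD44 High cells was at 15.9, 14.1 and 13.7 CPM and in CD44v6 cells at 12.9, 13.6 and 14.5, above parental cells in each derived library but with no call, the adjusted p being 0.07905, 0.0593 and 0.0783. NR4A3 was called in J82 CD44 Low, 2.83 (SE 0.68, adjusted p = 0.0305), from 0.712 to 1.62 CPM in parental to 5.85 to 9.88 CPM in CD44 Low libraries. That call was lost whichever library was left out (adjusted p up to 0.144). In RT-112, NR4A3 did not exceed 0.9 CPM in any library.

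**Figure D2:**
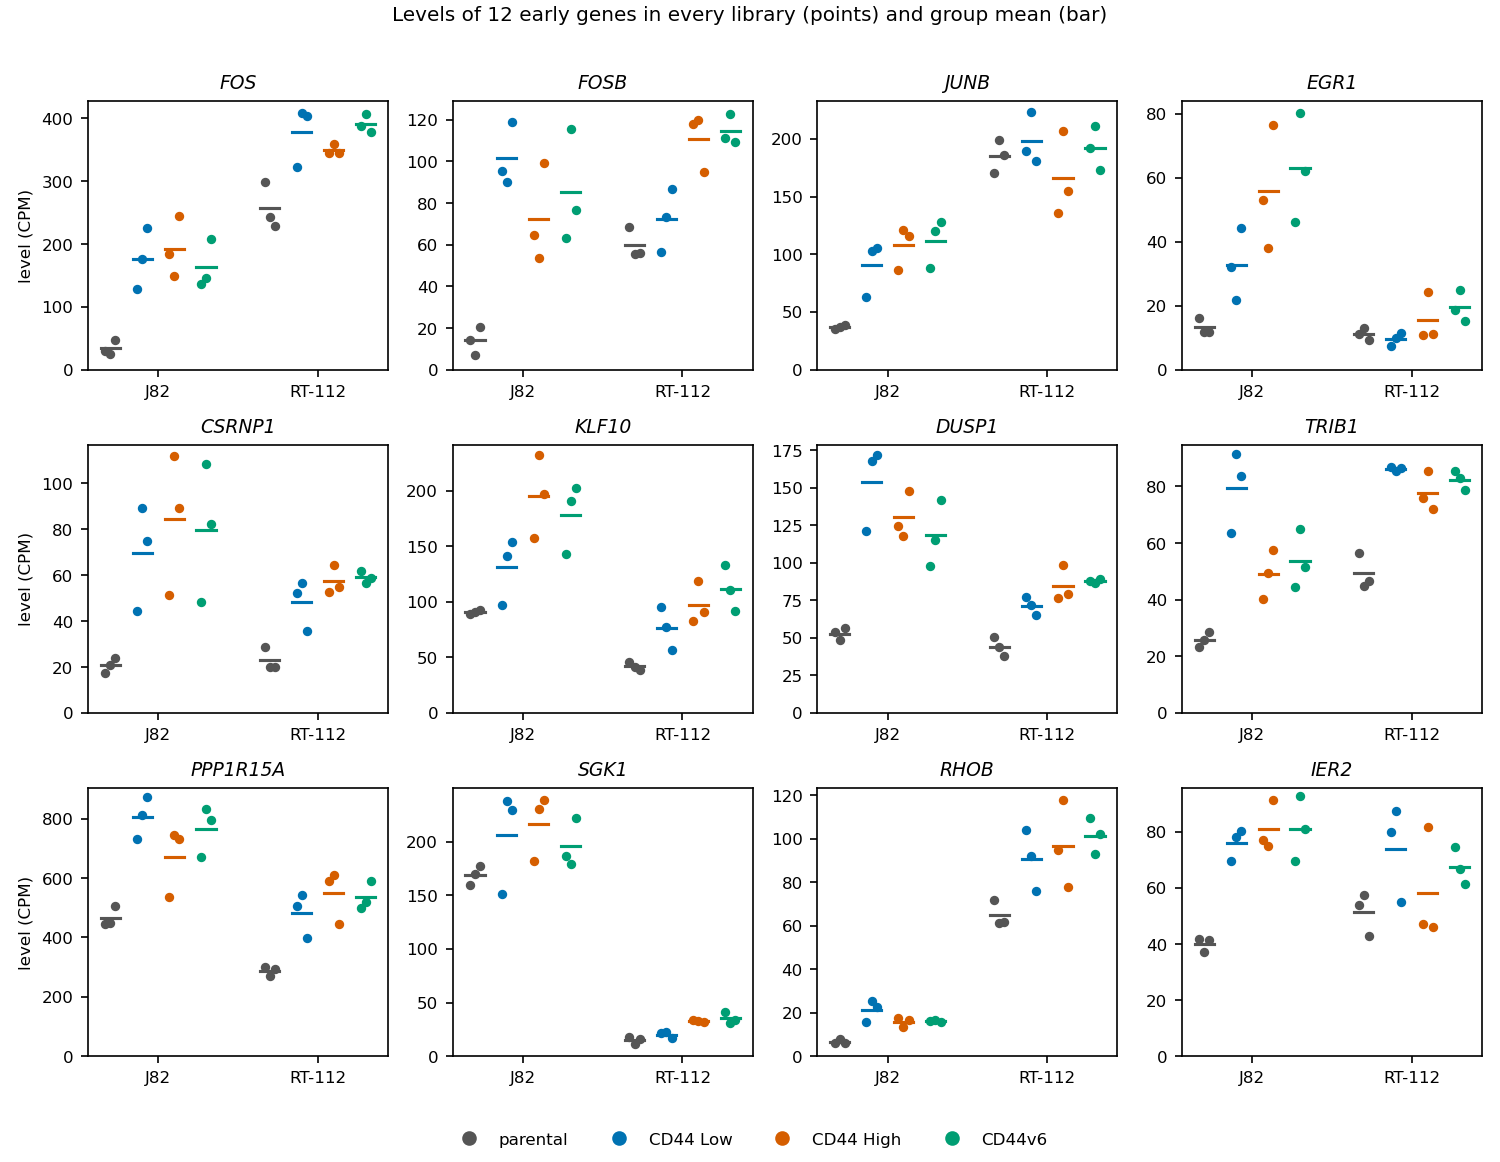
Level in CPM (vertical axis) of 12 early genes in each of the 24 libraries (points) with the mean of each group of 3 (bars), for J82 and RT-112 on the horizontal axis. In J82 the FOS, JUNB and RHOB points of the derived lines lie wholly above the parental ones, and in RT-112 SGK1 is higher in CD44 High and CD44v6 than in the other groups.

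Among the KLF zinc finger factors, KLF10 is a TGF-beta-induced repressor. In J82 it was at 89.2, 90.9 and 92.7 CPM in parental and 96.996, 141 and 154 in CD44 Low cells. KLF10 in CD44 High cells was at 157, 232 and 197 CPM and in CD44v6 cells at 143, 191 and 202. KLF10 levels in RT-112 were 45.7, 41.3 and 39.1 CPM in parental and 94.9, 76.99 and 56.9 in CD44 Low cells. KLF10 in CD44 High cells was at 82.6, 119 and 90.5 CPM and in CD44v6 cells at 133, 110.2 and 91.6. Every derived library in both lines lay above the parental ones. This is no evidence, since the rise of KLF10 was known when the genes were listed. The log2 differences, given with no test, were 0.52 (SE 0.18), 1.11 (SE 0.18) and 0.97 (SE 0.18) in J82 and 0.82 (SE 0.18), 1.20 (SE 0.18) and 1.37 (SE 0.18) in RT-112. CD44 High exceeded CD44 Low in J82 by 0.58 (SE 0.18, adjusted p = 0.0424), a call lost without CD44 Low 1 or 2 or CD44 High 2 or 3 (adjusted p up to 0.171). This call is not independent of the known rise over parental cells, which in J82 was 1.11 in CD44 High against 0.52 in CD44 Low. KLF6 in J82 was at 97.3, 69.2 and 82.8 CPM in parental and 146, 169.9 and 174 in CD44 Low cells. KLF6 in CD44 High cells was at 112, 129 and 141 CPM and in CD44v6 cells at 93.6, 156 and 107. CD44 Low was called against parental cells, 0.97 (SE 0.18, adjusted p = 0.006702), in all 6 left-out fits, while CD44 High (0.62 (SE 0.17, adjusted p = 0.0857)) and CD44v6 (0.51 (SE 0.17, adjusted p = 0.138)) did not pass. In RT-112 KLF6 was at 125, 108 and 96.5 CPM in parental and 136, 155 and 134 in CD44 Low cells. KLF6 in CD44 High cells was at 159, 196 and 154 CPM and in CD44v6 cells at 179, 178 and 155. There CD44 High and CD44v6 were called over parental cells, 0.62 (SE 0.11, adjusted p = 0.0365) and 0.59 (SE 0.11, adjusted p = 0.0402), and CD44 Low was not, 0.33 (SE 0.11, adjusted p = 0.144). Both calls were lost in most left-out fits (adjusted p up to 0.229 without parental 2 or 3 or CD44 High 1 or 2, and 0.197 without parental 2 or 3 or any CD44v6 library). KLF2, an endothelial and lymphocyte quiescence factor, was called between CD44 High and CD44 Low in RT-112, 0.996 (SE 0.27, adjusted p = 0.02397), with 4.03 to 5.798 CPM in CD44 Low and 5.897 to 11.8 CPM in CD44 High libraries, a call lost without CD44 Low 1 or 2 or CD44 High 1 or 2 (adjusted p up to 0.119).

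SRF, the factor that drives the serum response through CArG boxes, was called in no comparison within either line. It ranged from 42.0 to 58.3 CPM over the J82 libraries and from 56.9 to 76.2 CPM in RT-112, with log2 differences from parental cells of 0.013, 0.049 and 0.02 in J82. CSRNP1 is a nuclear protein induced by AXIN1. In J82 it was at 17.3, 20.7 and 23.9 CPM in parental and 44.5, 89.01 and 74.9 in CD44 Low cells. CSRNP1 in CD44 High cells was at 51.4, 112 and 89.3 CPM and in CD44v6 cells at 48.5, 108 and 82.05. CSRNP1 in RT-112 was at 28.8, 20.1 and 20.1 CPM in parental and 52.4, 56.4 and 35.5 in CD44 Low cells. CSRNP1 in CD44 High cells was at 52.5, 64.3 and 55.03 CPM and in CD44v6 cells at 61.9, 56.4 and 58.7. All derived libraries of both lines exceeded their parental libraries, which is no evidence, since the rise of CSRNP1 was known when the genes were listed. The log2 differences, given with no test, were 1.75 (SE 0.33), 2.03 (SE 0.34) and 1.95 (SE 0.34) in J82 and 1.03 (SE 0.17), 1.31 (SE 0.17) and 1.32 (SE 0.17) in RT-112. Antisense transcripts overlap exons of CSRNP1 and IER2.

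IER2 and IER5 encode small nuclear proteins of the same family. IER2 in J82 was at 41.8, 37.3 and 41.3 CPM in parental and 69.8, 78.2 and 80.2 in CD44 Low cells. IER2 in CD44 High cells was at 77.02, 74.9 and 91.4 CPM and in CD44v6 cells at 69.5, 92.8 and 81.1. Its 9 derived libraries lay above the parental ones, by 0.92 (SE 0.12, adjusted p = 0.00063), 1.02 (SE 0.12, adjusted p = 0.000826) and 1.02 (SE 0.12, adjusted p = 0.00191), and these calls held in all 6 left-out fits each. In RT-112 IER2 ranged from 42.8 to 87.3 CPM and was not called. IER5 in J82 was at 162, 185 and 193 CPM in parental and 249.1, 346 and 243 in CD44 Low cells. IER5 in CD44 High cells was at 299, 415 and 321 CPM and in CD44v6 cells at 312, 409 and 300.2, with changes of 0.63 (SE 0.16, adjusted p = 0.04397), 0.94 (SE 0.17, adjusted p = 0.00931) and 0.92 (SE 0.17, adjusted p = 0.0149), kept in 1, 4 and 4 of 6 left-out fits. The first was lost without parental 1, 2 or 3 or CD44 Low 1 or 2, the second without parental 1 or CD44 High 2 and the third without parental 1 or 2 (adjusted p up to 0.177, 0.0667 and 0.103). In RT-112 IER5 was at 177, 165 and 153 CPM in parental and 395, 318 and 234 in CD44 Low cells. IER5 in CD44 High cells was at 195, 274 and 198 CPM and in CD44v6 cells at 255, 198 and 211. CD44 Low was called over parental cells, 0.90 (SE 0.17, adjusted p = 0.0149), a call lost without parental 2 or 3 or CD44 Low 1 or 2 (adjusted p up to 0.0734). IER5L, an IER5-like gene, had J82 levels of 19.4, 18.8 and 23.7 CPM in parental and 29.1, 25.3 and 35.1 in CD44 Low cells. IER5L in CD44 High cells was at 21.6, 18.9 and 18.3 CPM and in CD44v6 cells at 17.7, 12.8 and 21.2. CD44 Low held the 3 highest values, and CD44 High and CD44v6 were lower than CD44 Low by -0.60 (SE 0.18, adjusted p = 0.0379) and -0.78 (SE 0.18, adjusted p = 0.0144), kept in 1 and 5 of 6 left-out fits, the second lost without CD44 Low 3 (adjusted p up to 0.126 and 0.0597). In RT-112 IER5L ranged from 14.3 to 21.0 CPM with no call. IER5L exons also have antisense partners.

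ID proteins hold basic helix-loop-helix factors away from DNA and rise with BMP signalling. ID1 in J82 was at 28.8, 33.4 and 40.4 CPM in parental and 27.3, 48.6 and 48.8 in CD44 Low cells. ID1 in CD44 High cells was at 73.7, 98.01 and 79.3 CPM and in CD44v6 cells at 57.9, 80.4 and 81.99. CD44 High and CD44v6 lay above both parental and CD44 Low cells with no overlap, by 1.29 (SE 0.22, adjusted p = 0.00651) and 1.10 (SE 0.21, adjusted p = 0.02102) over parental and by 1.02 (SE 0.21, adjusted p = 0.00629) and 0.82 (SE 0.21, adjusted p = 0.02802) over CD44 Low. The call of CD44 High over CD44 Low held in all 6 left-out fits, and that over parental cells was lost without parental 1 (adjusted p = 0.0538). CD44v6 lost its calls without parental 1 or 2 or CD44v6 2 (over parental) and without CD44 Low 1 or CD44v6 2 or 3 (over CD44 Low). In RT-112 ID1 was at 184, 185 and 199 CPM in parental and 182, 213 and 150.3 in CD44 Low cells. ID1 in CD44 High cells was at 169.8, 196 and 172 CPM and in CD44v6 cells at 216, 196 and 232, with all groups overlapping and no call, and the CD44 High against CD44 Low contrast differed between the lines by 1.03 (SE 0.26, adjusted p = 0.0129). ID2 was called in J82 CD44 High over parental cells, 1.68 (SE 0.33, adjusted p = 0.0172), with 1.25 to 2.304 CPM in parental and 4.99 to 5.73 CPM in CD44 High libraries, but not without parental 1 or 2 or CD44 High 2 (adjusted p up to 0.106). ID3 ranged from 26.4 to 43.1 CPM in J82 and from 34.6 to 60.5 CPM in RT-112 and was never called.

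Of the RNA decay genes, BTG1, an antiproliferative partner of the CCR4-NOT deadenylase, moved most evenly. In J82 it was at 29.5, 25.4 and 30.7 CPM in parental and 58.97, 57.1 and 53.3 in CD44 Low cells. BTG1 in CD44 High cells was at 51.4, 55.3 and 53.1 CPM and in CD44v6 cells at 46.9, 55.6 and 40.6. Its changes were 0.98 (SE 0.12, adjusted p = 0.000404), 0.90 (SE 0.12, adjusted p = 0.00165) and 0.74 (SE 0.12, adjusted p = 0.009095), and 1 of the 3 calls, CD44v6, was lost without parental 1 or 2 (adjusted p up to 0.06099). In RT-112 BTG1 was at 37.97, 38.4 and 43.9 CPM in parental and 55.4, 48.8 and 45.5 in CD44 Low cells. BTG1 in CD44 High cells was at 51.4, 55.1 and 52.3 CPM and in CD44v6 cells at 55.4, 51.2 and 54.99, each derived library above the parental ones but uncalled (adjusted p = 0.115, 0.0845 and 0.0774). LINC01619 on the same strand and an antisense transcript overlap its exons. The ZFP36 family binds AU-rich elements and shortens the life of early transcripts, FOS included. ZFP36 was not called in either line. In J82 it ran from 3.29 to 4.404 CPM in parental libraries and from 3.73 to 19.3 CPM in the derived ones, with log2 differences of 1.29, 1.34 and 1.44 (adjusted p = 0.191, 0.243 and 0.1804). ZFP36L2 was called in J82 CD44v6 alone, 0.95 (SE 0.23, adjusted p = 0.0473), with libraries at 7.39 to 8.99 CPM in parental and 11.8 to 23.9 CPM in CD44v6 cells, and lost without parental 1, 2 or 3 or CD44v6 2. ZFP36L1 and BTG2 were called in no comparison within a line, at 43.1 to 124 CPM and 0.274 to 79.4 CPM over the 24 libraries.

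DUSP1, the nuclear phosphatase that switches off MAP kinases, was higher in all 6 derived lines, and so was TRIB1, a pseudokinase that brings C/EBP factors to the COP1 ligase. DUSP1 in J82 was at 53.6, 48.5 and 56.3 CPM in parental and 121, 167 and 172 in CD44 Low cells. DUSP1 in CD44 High cells was at 125, 118 and 148 CPM and in CD44v6 cells at 97.7, 115 and 142, with changes of 1.54 (SE 0.16, adjusted p = 0.00021), 1.30 (SE 0.16, adjusted p = 0.00118) and 1.16 (SE 0.16, adjusted p = 0.00367). DUSP1 in RT-112 was at 50.5, 43.9 and 38.3 CPM in parental and 77.3, 72.04 and 65.1 in CD44 Low cells. DUSP1 in CD44 High cells was at 76.3, 98.8 and 79.1 CPM and in CD44v6 cells at 87.7, 86.5 and 88.9, with 0.66 (SE 0.12, adjusted p = 0.00989), 0.93 (SE 0.12, adjusted p = 0.00274) and 0.94 (SE 0.12, adjusted p = 0.00237). No derived library overlapped a parental one in either line. DUSP1 lost 1 of these 6 calls in a left-out fit, RT-112 CD44 Low without parental 2 or CD44 Low 1 (adjusted p up to 0.0622). TRIB1 in J82 was at 23.3, 25.8 and 28.6 CPM in parental and 63.7, 91.3 and 83.5 in CD44 Low cells. TRIB1 in CD44 High cells was at 40.2, 49.3 and 57.4 CPM and in CD44v6 cells at 44.5, 65.1 and 51.6. CD44 Low was the highest group, 1.62 (SE 0.17, adjusted p = 0.000251) over parental cells, against 0.92 (SE 0.17, adjusted p = 0.0129) and 1.05 (SE 0.17, adjusted p = 0.01099) for the others, and CD44 High was lower than CD44 Low by -0.70 (SE 0.17, adjusted p = 0.0144). In RT-112 TRIB1 was at 56.6, 44.7 and 46.7 CPM in parental and 86.7, 85.4 and 86.5 in CD44 Low cells. TRIB1 in CD44 High cells was at 75.8, 85.6 and 71.98 CPM and in CD44v6 cells at 85.5, 82.96 and 78.7, with changes of 0.77 (SE 0.10, adjusted p = 0.001695), 0.65 (SE 0.10, adjusted p = 0.0109) and 0.70 (SE 0.10, adjusted p = 0.00637). Its CD44 Low calls over parental cells held in all 6 left-out fits in both lines. Those of CD44 High and CD44v6 did not: in each line and group leaving out parental 2 ended them (adjusted p up to 0.08795, 0.0897, 0.134 and 0.0647), and the J82 CD44 High against CD44 Low call was lost without CD44 Low 2 or CD44 High 1 or 2. DUSP2 was at 4.55 to 4.89 CPM in J82 parental and 3.93 to 14.6 CPM in J82 CD44v6 libraries, uncalled, and did not exceed 0.367 CPM in RT-112.

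SGK1, a kinase induced by serum and glucocorticoids that acts on ion transport and survival, was called in RT-112 and in no J82 comparison. SGK1 in RT-112 was at 18.2, 11.9 and 15.6 CPM in parental and 21.4, 22.2 and 17.02 in CD44 Low cells. SGK1 in CD44 High cells was at 33.7, 32.96 and 31.99 CPM and in CD44v6 cells at 41.002, 31.5 and 33.7. CD44 High and CD44v6 lay above parental and CD44 Low cells with no overlap, by 1.11 (SE 0.16, adjusted p = 0.00649) and 1.17 (SE 0.16, adjusted p = 0.00399) over parental and 0.74 (SE 0.15, adjusted p = 0.00713) and 0.80 (SE 0.15, adjusted p = 0.00533) over CD44 Low. Only 1 of these 4 calls was lost in a left-out fit, CD44 High over parental cells without CD44 High 1 (adjusted p = 0.0582). In J82 SGK1 was at 159, 170.2 and 177 CPM in parental and 151, 238 and 229 in CD44 Low cells. SGK1 in CD44 High cells was at 182, 230.1 and 239 CPM and in CD44v6 cells at 186, 179 and 222, with no call. The interaction did not pass in CD44 High or CD44v6 over parental cells (-0.75 (SE 0.23, adjusted p = 0.239) and -1.004 (SE 0.23, adjusted p = 0.081004)), so the change was not shown to differ between the lines. SIK1, a salt-inducible kinase that holds CREB coactivators in the cytoplasm, was called in J82 CD44 Low, 1.31 (SE 0.33, adjusted p = 0.0372), with 16.5 to 22.1 CPM in parental and 28.7 to 60.7 CPM in CD44 Low libraries, and not without parental 1, 2 or 3 or CD44 Low 2 or 3 (adjusted p up to 0.159). In RT-112 SIK1 had 212 to 260.2 CPM in parental libraries and 262 to 597 CPM in CD44 High ones, uncalled.

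RHOB is a short-lived small GTPase of endosomes. Its J82 levels were 5.96, 7.78 and 6.18 CPM in parental and 15.7, 25.4 and 22.8 in CD44 Low cells. RHOB in CD44 High cells was at 17.5, 13.6 and 16.9 CPM and in CD44v6 cells at 16.1, 16.7 and 15.8. Its derived libraries all exceeded the parental ones, by 1.68 (SE 0.18, adjusted p = 0.000251), 1.27 (SE 0.18, adjusted p = 0.00281) and 1.29 (SE 0.18, adjusted p = 0.00425), and each call held in all 6 left-out fits. In RT-112 RHOB was at 71.6, 61.1 and 61.9 CPM in parental and 104, 91.98 and 76.03 in CD44 Low cells. RHOB in CD44 High cells was at 94.7, 118 and 78.1 CPM and in CD44v6 cells at 109.5, 92.9 and 102, with no overlap with parental cells and no call (adjusted p = 0.112, 0.1205 and 0.0774). ARC, best known as an activity-induced gene of neurons, was low in both lines. ARC in RT-112 was at 1.13, 1.56 and 0.928 CPM in parental and 3.77, 4.05 and 2.33 in CD44 Low cells. ARC in CD44 High cells was at 1.59, 1.38 and 0.604 CPM and in CD44v6 cells at 1.67, 1.54 and 1.23. CD44 Low was higher than parental cells, 1.45 (SE 0.35, adjusted p = 0.04401), and CD44 High and CD44v6 were lower than CD44 Low, by -1.49 (SE 0.36, adjusted p = 0.0144) and -1.19 (SE 0.35, adjusted p = 0.0351). The calls were kept in 1, 4 and 1 of 6 left-out fits, and all 3 were lost without CD44 Low 1 or 2 (adjusted p up to 0.159, 0.0569 and 0.131), the 2 libraries with a low share of mitochondrial counts. In J82 ARC was at 0, 0 and 0.419 CPM in parental and 1.34, 1.03 and 0.916 in CD44 Low cells. ARC in CD44 High cells was at 0.731, 0.392 and 1.62 CPM and in CD44v6 cells at 1.503, 0.476 and 1.48, uncalled. IFRD1 is a transcriptional coregulator of differentiation. Its RT-112 levels were 20.2, 19.9 and 21.6 CPM in parental and 33.2, 30.8 and 35.1 in CD44 Low cells. IFRD1 in CD44 High cells was at 30.6, 29.9 and 32.9 CPM and in CD44v6 cells at 29.3, 28.6 and 30.1. It was higher in each derived line than in parental cells, by 0.65 (SE 0.09, adjusted p = 0.00344), 0.60 (SE 0.09, adjusted p = 0.0111) and 0.47 (SE 0.09, adjusted p = 0.0395), with no overlap. IFRD1 in J82 was at 95.99, 103 and 88.1 CPM in parental and 122, 125 and 122 in CD44 Low cells. IFRD1 in CD44 High cells was at 93.9, 100.1 and 92.7 CPM and in CD44v6 cells at 106, 82.6 and 91.3, where CD44 High and CD44v6 were lower than CD44 Low by -0.36 (SE 0.10, adjusted p = 0.02701) and -0.39 (SE 0.10, adjusted p = 0.0241). The RT-112 CD44 Low call held in all 6 left-out fits, CD44 High was lost without parental 1 or 2 or CD44 High 1, RT-112 CD44v6 and J82 CD44 High were lost whichever library was left out (adjusted p up to 0.169 and 0.0857), and J82 CD44v6 was kept in 1 of 6. IFRD1 shares exon sequence with LSMEM1 on the same strand.

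PPP1R15A (GADD34) directs phosphatase to eIF2 and restores translation after stress, and it was higher in all 6 derived lines. In J82 it was at 445, 448 and 507 CPM in parental and 732, 813 and 873 in CD44 Low cells. PPP1R15A in CD44 High cells was at 535, 745 and 732 CPM and in CD44v6 cells at 672, 834 and 794, with changes of 0.78 (SE 0.13, adjusted p = 0.00356), 0.53 (SE 0.13, adjusted p = 0.0438) and 0.72 (SE 0.13, adjusted p = 0.0143). PPP1R15A in RT-112 was at 301, 269 and 295 CPM in parental and 505, 542 and 398 in CD44 Low cells. PPP1R15A in CD44 High cells was at 591, 609.9 and 444 CPM and in CD44v6 cells at 499, 518 and 589, with changes of 0.70 (SE 0.13, adjusted p = 0.01199), 0.92 (SE 0.13, adjusted p = 0.00649) and 0.85 (SE 0.13, adjusted p = 0.0105). Derived and parental libraries did not overlap in either line. The calls were kept in 6, 1 and 4 of 6 left-out fits in J82 and in 3, 4 and 4 in RT-112, and except for J82 CD44 Low each was lost without parental 2 (adjusted p up to 0.199). The other stress sensors GADD45A and GADD45B, which bind PCNA and stress kinases, were called in no comparison within a line. GADD45A was at 178 to 196 CPM in J82 parental libraries and between 163 and 311 CPM in the derived ones, and its adjusted p against parental cells was 0.496, 0.0857 and 0.0878. GADD45B ranged from 21.9 to 70.4 CPM over the 24 libraries.

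MCL1, a short-lived anti-apoptotic BCL2 protein, had small and even differences. In J82 it was at 235, 242 and 253 CPM in parental and 279, 270.01 and 302 in CD44 Low cells. MCL1 in CD44 High cells was at 331, 316 and 349 CPM and in CD44v6 cells at 304, 294 and 338, called in CD44 High and CD44v6 over parental cells, 0.45 (SE 0.082, adjusted p = 0.0116) and 0.36 (SE 0.082, adjusted p = 0.0407). MCL1 in RT-112 was at 259, 219.6 and 229 CPM in parental and 372, 312 and 319 in CD44 Low cells. MCL1 in CD44 High cells was at 303, 335 and 318 CPM and in CD44v6 cells at 349, 343 and 308, called in CD44 Low and CD44v6, 0.47 (SE 0.09, adjusted p = 0.0168) and 0.46 (SE 0.09, adjusted p = 0.0429). The libraries of derived and parental cells did not overlap in either line, and the calls were kept in 4, 1, 3 and 1 of 6 left-out fits, each lost without parental 2 (adjusted p up to 0.0857, 0.199, 0.0896 and 0.2001). IER3 (IEX-1) is a stress-induced modulator of apoptosis. Its J82 levels were 43.2, 45.7 and 50.1 CPM in parental and 50.002, 86.1 and 98.2 in CD44 Low cells. IER3 in CD44 High cells was at 87.04, 203 and 146 CPM and in CD44v6 cells at 89.1, 155 and 148. CD44 High and CD44v6 were higher than parental cells by 1.65 (SE 0.30, adjusted p = 0.0116) and 1.496 (SE 0.30, adjusted p = 0.0247), calls lost without parental 1 or 2 or CD44 High 2 in the first and without parental 1, 2 or 3 or CD44v6 2 in the second. In RT-112 IER3 was at 109, 92.2 and 101 CPM in parental and 136, 99.5 and 84.5 in CD44 Low cells. IER3 in CD44 High cells was at 153, 228 and 119.7 CPM and in CD44v6 cells at 197, 149 and 172, with CD44 High and CD44v6 higher than CD44 Low by 0.67 (SE 0.21, adjusted p = 0.0424) and 0.69 (SE 0.21, adjusted p = 0.0393), each kept in 2 of 6 left-out fits (adjusted p up to 0.167 and 0.1205) and lost without CD44 Low 2 or 3, among others. An antisense transcript overlaps IER3.

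Over the comparisons with parental cells, and leaving aside KLF10, CSRNP1 and NR4A1, 26 of 43 members were called higher at least once in J82, beside 4.33% of all genes, and 13 of 42 in RT-112, beside 1.61%. Of these, 10 were called in both lines, beside 0.485% of the genes tested in both, among them FOS, FOSB, JUND, MAFF, KLF6 and MCL1. The calls need not be in the same CD44 group: JUND and KLF6 were called in CD44 Low in J82 and in CD44 High and CD44v6 in RT-112. In the same comparison in both lines, 7, 6 and 8 of 45 members were called higher in CD44 Low, CD44 High and CD44v6. These counts include CSRNP1 and, in the last 2, KLF10. Beside them, 123, 17 and 15 of 14237 genes were called in the same direction. DUSP1, TRIB1 and PPP1R15A were called in each of the 6 derived lines, in which the 3 comparisons of a line share its parental libraries. The share of all genes called in all 6 was not counted, so how unusual these 3 are cannot be read here. JUN, JUNB, EGR1, NR4A2, RHOB and BTG1 were among the 16 called in J82 only, SGK1, ARC and IFRD1 were the 3 called in RT-112 only, and 14 were called in neither. Called in one line and not in the other does not show that the lines differ, which the interaction contrast tests. For CD44 Low it was higher in J82 for 6 members and lower for 0 (all genes 0.304% and 0.757%): FOS by 1.81 (SE 0.31, adjusted p = 0.00352), FOSB by 2.58 (SE 0.40, adjusted p = 0.00131), JUNB by 1.20 (SE 0.26, adjusted p = 0.02198), JUND by 0.70 (SE 0.17, adjusted p = 0.0478), BTG1 by 0.67 (SE 0.15, adjusted p = 0.0291) and RHOB by 1.20 (SE 0.24, adjusted p = 0.0118). For CD44 High it was higher for 3 and lower for 1 (0.178% and 0.0631%): FOS by 2.04 (SE 0.31, adjusted p = 0.00458), JUNB by 1.71 (SE 0.26, adjusted p = 0.00458) and ID1 by 1.37 (SE 0.26, adjusted p = 0.0256), with IFRD1 at -0.60 (SE 0.13, adjusted p = 0.0466). For CD44v6 it was higher for 2 and lower for 0 (0.0688% and 0.0688%), FOS by 1.64 (SE 0.31, adjusted p = 0.0279) and JUNB by 1.55 (SE 0.26, adjusted p = 0.0135). With 1 library left out these 3 counts ranged from 2 to 8, from 2 to 5 and from 0 to 4. The first was 2 without J82 parental 1 and 3 without J82 parental 3, J82 CD44 Low 2 or RT-112 parental 2. The second was 2 without J82 parental 1 or 2, J82 CD44 High 2, RT-112 parental 2 or 3 or RT-112 CD44 High 1. The third was 0 without J82 parental 1, RT-112 parental 2 or RT-112 CD44v6 3, 1 without J82 parental 2, RT-112 parental 1 or RT-112 CD44v6 1 or 2, and 4 without J82 parental 3 or J82 CD44v6 3.

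The starting levels differed too. Between the parental lines 10 of 46 members were higher and 21 lower in J82 than in RT-112 (21.7% and 45.7%), beside 31% and 31% of all genes. Without KLF10, CSRNP1 and NR4A1 the counts were 9 and 21 of 43. FOS was lower in J82 parental cells by -2.91 (SE 0.23, adjusted p = 4.14e-10), FOSB by -2.09 (SE 0.29, adjusted p = 1.75e-06), JUNB by -2.33 (SE 0.19, adjusted p = 5.72e-10), RHOB by -3.29 (SE 0.18, adjusted p = 8.87e-13) and ID1 by -2.47 (SE 0.19, adjusted p = 2.42e-10). These 5 are also among the genes of the interaction contrasts above. Of the other genes there, BTG1 was called too, with parental means of 28.5 CPM in J82 and 40.1 in RT-112. JUND was called with its mean higher in J82, 83.5 CPM against 66.96. BTG2 had the largest deficit in J82, -6.78 (SE 0.51, adjusted p = 1.16e-10). SGK1 was higher in J82 by 3.47 (SE 0.18, adjusted p = 2.82e-13), FOSL1 by 3.06 (SE 0.29, adjusted p = 7e-09) and IFRD1 by 2.21 (SE 0.092, adjusted p = 7.15e-15). JUN (0.14 (SE 0.19, adjusted p = 0.529)), EGR1 (0.25 (SE 0.32, adjusted p = 0.533)) and MCL1 (0.047 (SE 0.087, adjusted p = 0.6603)) were not called between the parental lines. These parental libraries also enter the interaction contrasts, so a library low for a gene in J82 parental cells moves both values.

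Between the derived lines the picture was mixed. J82 CD44 High against CD44 Low had 4 members higher (FOSL1, FOSL2, KLF10, ID1) and 5 lower (JUND, CEBPD, IER5L, TRIB1, IFRD1), beside 8.83% and 6.9% of all genes. Without KLF10, CSRNP1 and NR4A1 these counts were 3 and 5 of 43. The shares and left-out counts of members in this paragraph take those genes in. J82 CD44v6 against CD44 Low had 2 higher (FOSL2, ID1) and 4 lower (JUND, CEBPD, IER5L, IFRD1), beside 6.18% and 3.4%. RT-112 CD44 High against CD44 Low had 5 higher (FOSB, FOSL1, KLF2, SGK1, IER3) and 1 lower (ARC), beside 9.01% and 7.02%, and CD44v6 against CD44 Low had 5 higher (FOSB, FOSL1, EGR1, SGK1, IER3) and 1 lower (ARC), beside 7.97% and 8.03%. The share called, 8.7% and 10.9% in J82 CD44 High and 11.1% and 2.22% in both RT-112 comparisons, is of the same order as for all genes. Both contrasts of a line use its CD44 Low libraries. The J82 CD44 High count of 9 was 5 without CD44 Low 1 or 2 and 4 without CD44 High 2 or 3, the RT-112 CD44 High count of 6 was 3 without CD44 Low 2 or CD44 High 1, and the RT-112 CD44v6 count of 6 was 3 without CD44v6 1. The difference between the lines in CD44 High against CD44 Low was higher for 2 members, IER5 (0.81 (SE 0.26, adjusted p = 0.04999)) and ID1, and lower for 2, JUND and CEBPD, beside 6.24% and 4.42% of all genes.

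**Figure D3:**
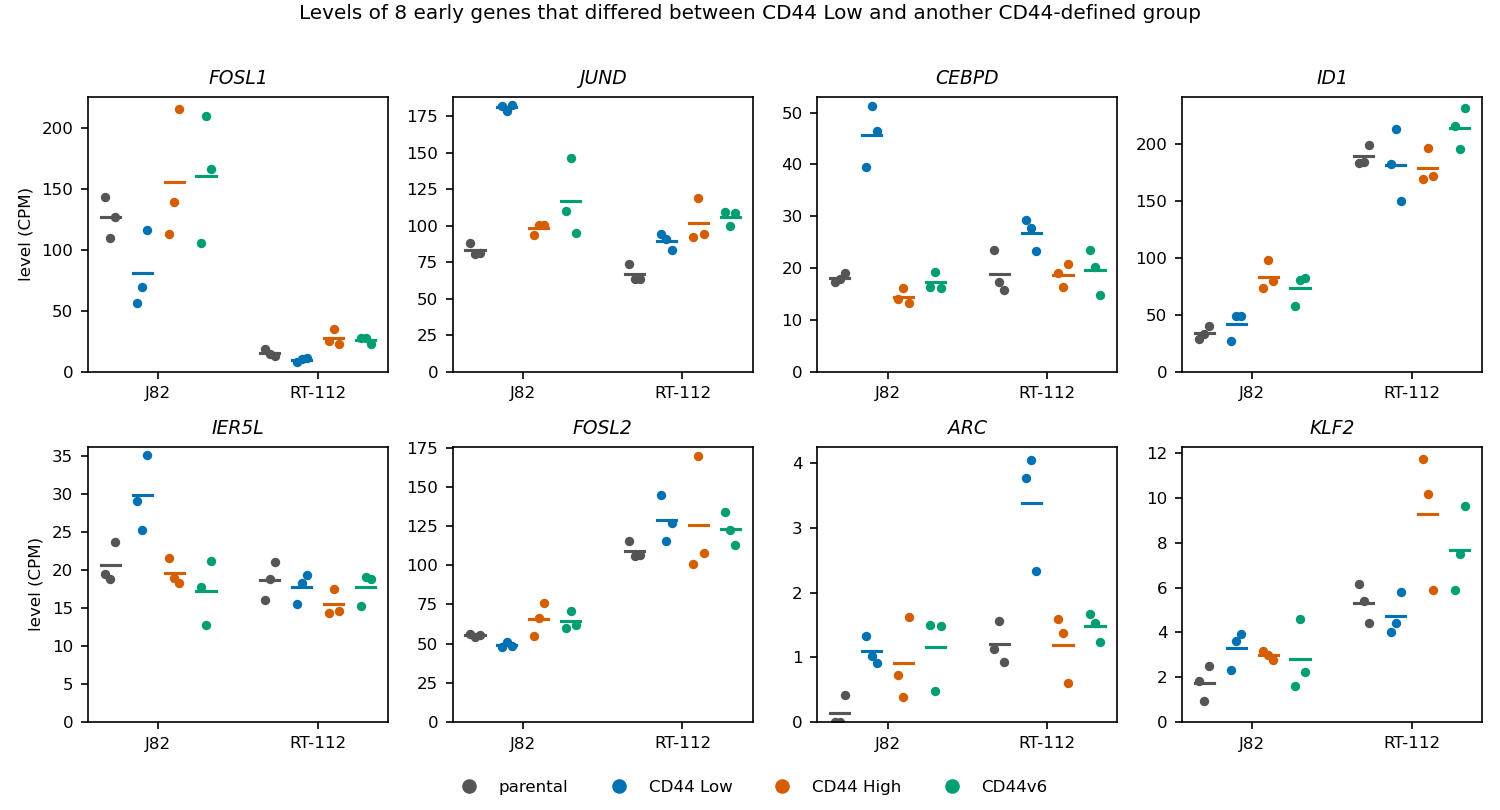
Level in CPM (vertical axis) of 8 early genes in each library (points) with the mean of each group of 3 (bars), for J82 and RT-112 on the horizontal axis. J82 CD44 Low stands above the other J82 groups in JUND, CEBPD and IER5L and below CD44 High in FOSL2 and ID1, and RT-112 CD44 Low is lowest in FOSL1 and highest in ARC.

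No early gene was called between CD44v6 and CD44 High. In J82 0 members were called higher and 0 lower (all genes 0% and 0%), and 0 of 46 reached an unadjusted p under 0.05 in edgeR, against 9.63% of all genes. In RT-112 the counts were 0 and 0 (all genes 0% and 0%), with 0 of 45 at an unadjusted p under 0.05 against 4.25%. DESeq2 also called 0 in each, and the RT-112 count was 1 without CD44 High 2. The libraries of both groups did not overlap in FOS in RT-112 (CD44v6 higher) or in CEBPD (CD44v6 higher) and ID2 (CD44v6 lower) in J82, with log2 differences of 0.12 (SE 0.11, adjusted p = 1), 0.26 (SE 0.12, adjusted p = 0.528) and -0.33 (SE 0.31, adjusted p = 0.731). The share of all genes whose libraries separate in this way was not counted, so no difference between the groups can be read from these genes. The fitted log2 difference of FOS in J82, CD44v6 minus CD44 High, was -0.24 (SE 0.26), those of EGR1 in J82 and RT-112 were 0.17 (SE 0.28) and 0.31 (SE 0.28), and those of JUN 0.25 (SE 0.16) and 0.11 (SE 0.18). With 3 libraries a group these standard errors leave room for differences of moderate size.

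Within each derived J82 line the members tended to move together by library. The medians and counts of this paragraph take in KLF10, CSRNP1 and NR4A1. The median difference of the 46 from the parental mean, in log2(CPM + 1), was 0.61, 0.79 and 0.90 in CD44 Low replicates 1, 2 and 3, 0.50, 0.82 and 0.99 in CD44 High, and 0.58, 1.09 and 0.998 in CD44v6, while the median over all genes stayed between -0.0088 and 0.0019. Replicate 1 was the lowest of each group, and 11, 7 and 8 of the 46 lay above their group mean there. For single members this was plainest in CSRNP1, NR4A1, ATF3 and MAFF, given above. In J82 replicates 2 and 3 alone, a reading chosen after the libraries were seen, 17, 13 and 11 of all 46 members were called over parental cells. In RT-112 the medians were 0.39, 0.39 and 0.21 in CD44 Low, 0.30, 0.63 and 0.26 in CD44 High, and 0.56, 0.44 and 0.39 in CD44v6, with CD44 High replicate 2 the highest. Such joint shifts were not particular to the derived J82 lines. In RT-112 CD44 High, 12, 38 and 8 of 45 lay above their group mean. In the J82 parental libraries, which enter each difference, 21, 12 and 36 of 46 did, beside 49.8%, 50.1% and 50.2% of all genes. For the derived lines the share of all genes above the group mean was not counted. Over the 14 heat shock genes of a separate list, medians over parental cells lay between -0.29 and 0.17 in the derived libraries of both lines. What sets a library apart in these genes was not tested, and the labels give no culture date or harvest batch.

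**Figure D4:**
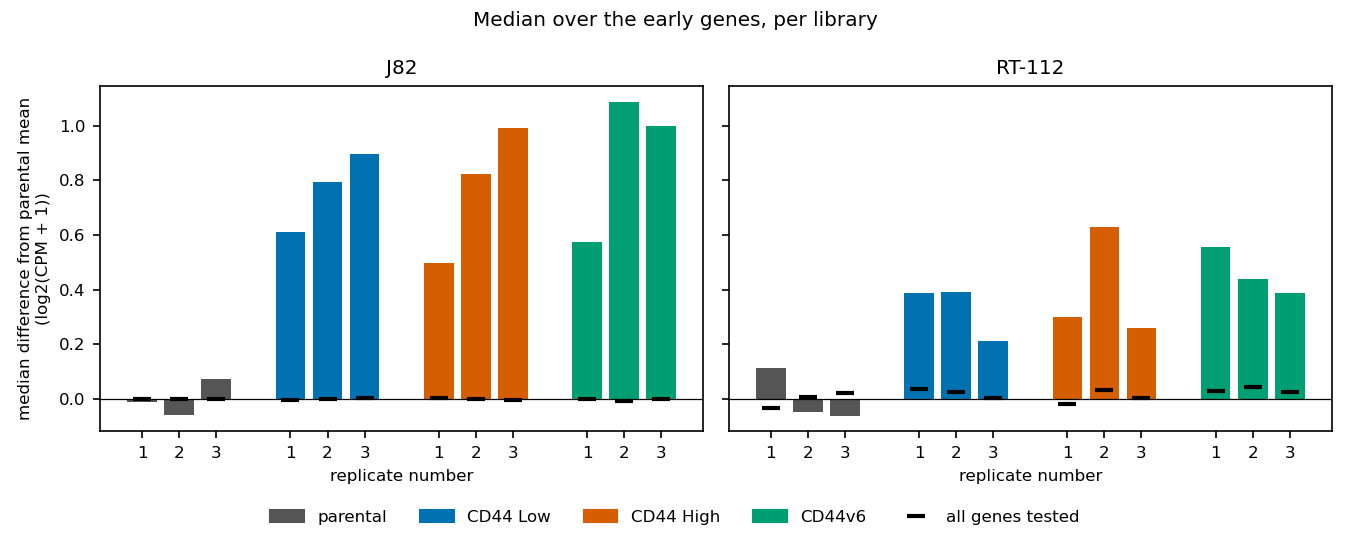
Median over the early genes, KLF10, CSRNP1 and NR4A1 included, of the difference from the parental mean in log2(CPM + 1) (vertical axis) for each library, by replicate number (horizontal axis) and group (colour), with black marks for the median over all genes tested. In J82 the bars run from 0.50 to 1.09 with replicate 1 lowest in each derived line, and in RT-112 from 0.21 to 0.63.

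Other genes of the response were on a list drawn with earlier results of these data known, as were the other lists. Their calls here and in the next paragraph are therefore a description and no independent evidence. Of 40 other early genes, 39 were tested in J82, where 13, 16 and 14 were called higher than in parental cells in CD44 Low, CD44 High and CD44v6 and 0 lower, beside 2.26%, 1.71% and 1.86% of all genes higher. Their medians were 0.64, 0.96 and 0.76. In RT-112 35 were tested, with 3, 5 and 6 higher (all genes 1.33%, 0.249% and 0.288%) and 4, 0 and 0 lower (all genes 1.87%, 0.262% and 0.326%), and medians of 0.23, 0.52 and 0.50. KLF4, TNFAIP3, DUSP6 and ERRFI1 were called higher than in parental cells in both lines, in CD44 High and again in CD44v6. Beside them, 17 and 15 of 14237 genes were called in the same direction in both lines in these comparisons. The share called in both was not counted, and the comparisons of a line share its parental libraries. As examples of genes called alike, TNFAIP3, an inhibitor of NF-kappaB signalling, was higher in CD44 High by 2.23 in J82 and 2.12 in RT-112 (SE 0.35 and 0.37, adjusted p = 0.00446 and 0.0255). The zinc finger factor KLF4 was higher in CD44v6 by 0.94 in J82 and 0.82 in RT-112 (SE 0.12 and 0.13, adjusted p = 0.00358 and 0.0105). TIPARP, a target of the aryl hydrocarbon receptor, was higher in CD44 Low by 1.08 in J82 and 0.75 in RT-112 (SE 0.24 and 0.15, adjusted p = 0.0186 and 0.0207).

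In CD44 High against CD44 Low, 7 of the other early genes were higher and 4 lower in J82 (all genes 8.83% and 6.9%), and 9 and 0 in RT-112 (9.01% and 7.02%). The same shares of all genes stand beside the counts of the other lists in this comparison below. Higher in both lines were the MAP kinase phosphatase DUSP6, by 1.47 in J82 and 1.08 in RT-112 (SE 0.19 and 0.10, adjusted p = 0.000176 and 8.62e-05), the EGFR feedback inhibitor ERRFI1, by 1.81 in J82 and 0.97 in RT-112 (SE 0.20 and 0.10, adjusted p = 5.35e-05 and 0.000161), and SPRY4, an inhibitor of receptor tyrosine kinase signalling, by 2.18 in J82 and 0.88 in RT-112 (SE 0.43 and 0.22, adjusted p = 0.00437 and 0.0179). Of 20 AP-1 partners and targets, 16 were tested in J82, with 5 higher and 2 lower, and 18 in RT-112, with 4 higher and 2 lower. CCND1 (cyclin D1) was higher by 1.60 in J82 and 0.32 in RT-112 (SE 0.084 and 0.08, adjusted p = 2.15e-07 and 0.0165) and IL1A by 1.61 in J82 and 0.87 in RT-112 (SE 0.25 and 0.24, adjusted p = 0.000868 and 0.0268), while HMOX1 was lower, by -0.52 in J82 and -0.66 in RT-112 (SE 0.11 and 0.21, adjusted p = 0.00603 and 0.0463). Of 15 SRF and actin targets tested in each line, 4 were higher and 1 lower in J82 and 2 and 1 in RT-112, with TPM1 (tropomyosin) higher by 0.65 in J82 and 0.44 in RT-112 (SE 0.13 and 0.11, adjusted p = 0.00355 and 0.0144). Of 14 heat shock genes, 1 was higher in J82 (HSPA8) and 5 in RT-112 (HSPA8, HSPD1, HSPE1, HSP90AB1 and BAG3, named after their values were seen), and 0 lower. HSPA8, the constitutive HSC70 chaperone, was higher in both, by 0.42 in J82 and 0.34 in RT-112 (SE 0.11 and 0.089, adjusted p = 0.0188 and 0.0218). In CD44v6 against CD44 Low 0 heat shock genes were called in J82 and 3 were higher in RT-112, beside 6.18% and 7.97% of all genes higher. Over parental cells 0 of 14 were called in each of the 6 comparisons. Of 22 upstream kinase pathway genes, 3 were higher and 2 lower in J82 CD44 High over CD44 Low, and 2 and 0 in RT-112.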

How the data were processed

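Gene counts of 24 RNA-seq libraries were analysed. Per the labels, total RNA was extracted and sequenced by a service provider, and the submitters' processing notes name HISAT2, StringTie and the build GRCh37. The deposited count table holds whole-number counts per gene that were not normalised, per the file headers and values; the counting program's strand setting and annotation are not given in the sources used here. Columns were matched to samples by title.

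The members and lists were chosen with earlier results of these data known. Low counts were filtered (filterByExpr), libraries scaled by TMM and each line's 12 libraries fitted with edgeR 4.0.16 (R 4.3.3) by group, over 15951 genes in J82 and 15645 in RT-112. Contrasts between lines used all 24 libraries (17438 genes). P-values were adjusted (Benjamini-Hochberg) over all genes tested, with calls under 0.05; the SE is the log2 fold change over the root of F. Levels are CPM scaled by TMM over the 24 libraries. Library medians used log2(CPM + 1). The tests were tried on simulated counts. Alternatives were DESeq2 1.42.0, median-of-ratios scaling, no filter, a replicate block, the compared libraries alone and leaving out each library. Same-numbered libraries varied together (correlations over 0.1 in all pairs) only between J82 CD44v6 and J82 CD44 High (0.112, 0.11 and 0.252), where a number is taken to mark a pair and the block called 0 members too. Members called in at least 2 comparisons within lines, with FOS, JUN, EGR1 and ATF3, are given by library, and other genes only if called alike in both lines. Whether replicates came from separate cultures is not stated beyond the word biological, so p-values measure the spread between these libraries.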

Additional observations from a re-analysis of the deposited data

Results flagged for a closer look

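A difference between the lines in the change of a gene was tested with the interaction contrast, J82 minus RT-112, in edgeR on all 24 libraries. The adjusted p-values below are from that test, over all genes, and each contrast had 12 fits that left out 1 library.

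In CD44 Low against parental cells, the increase was larger in J82 for FOS by 1.81 (SE 0.31, adjusted p = 0.00352) and FOSB by 2.58 (SE 0.40, adjusted p = 0.00131), both kept in all 12 left-out fits. RHOB followed with 1.20 (SE 0.24, adjusted p = 0.0118), kept in 10 of 12, JUNB with 1.20 (SE 0.26, adjusted p = 0.02198), kept in 7, and BTG1 with 0.67 (SE 0.15, adjusted p = 0.0291), kept in 6. JUND, at 0.70 (SE 0.17, adjusted p = 0.0478), was kept in 1 of 12.

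In CD44 High against parental cells, FOS differed by 2.04 (SE 0.31, adjusted p = 0.00458) and JUNB by 1.71 (SE 0.26, adjusted p = 0.00458), each in all 12 fits. ID1 differed by 1.37 (SE 0.26, adjusted p = 0.0256) and was kept in 6 of 12. IFRD1, which was higher over parental cells in RT-112, differed by -0.60 (SE 0.13, adjusted p = 0.0466) and was kept in 1 of 12.

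In CD44v6 against parental cells the test passed for FOS, 1.64 (SE 0.31, adjusted p = 0.0279), and JUNB, 1.55 (SE 0.26, adjusted p = 0.0135), kept in 5 and 9 of 12 fits.

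In CD44 High against CD44 Low, which does not use the parental libraries, JUND differed by -1.07 (SE 0.17, adjusted p = 0.000285) and CEBPD by -1.14 (SE 0.23, adjusted p = 0.00257), both lower in J82 CD44 High and both kept in all 12 fits. ID1 differed by 1.03 (SE 0.26, adjusted p = 0.0129), also in all 12, and IER5 by 0.81 (SE 0.26, adjusted p = 0.04999), in 4 of 12. The causes of these differences between the lines were not tested.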

How the results depend on the processing

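Of 173 calls of single members over the 17 comparisons, those of KLF10, CSRNP1 and NR4A1 included here and in the counts below, 172 held under median-of-ratios scaling, 151 with no filter on low counts, 173 of 173 in DESeq2, 132 of 142 with the replicate block and 106 of 126 with only the 6 libraries compared, and none changed direction. Of the 173, 83 held in every fit that left out 1 library. DESeq2 called more members than edgeR: 19 and 19 in RT-112 CD44 High and CD44v6 against parental cells, and 11, 8 and 8 in the differences between lines for CD44 Low, CD44 High and CD44v6 against parental cells. With the 6 libraries compared alone, counts were 6 and 22 in RT-112 CD44 High and CD44v6 against parental cells, 1 in J82 CD44v6 against CD44 Low and 2 between CD44 High and CD44 Low in RT-112. With a replicate block, 11 members were called in J82 CD44v6 against CD44 Low and 7 in the difference between lines in CD44 High against CD44 Low. The block changed no other count by more than 1.5 times, and outside J82 CD44v6 against CD44 High the replicate numbers did not meet the rule for pairs. With J82 replicates 2 and 3 alone, a setting chosen after seeing the data, counts were 13 and 11 in CD44 High and CD44v6 against parental cells and 5 and 3 in CD44 High and CD44v6 against CD44 Low.

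With each library left out in turn, counts ranged in J82 from 14 to 20 (CD44 Low), 10 to 23 (CD44 High) and 7 to 24 (CD44v6) against parental cells, from 4 to 9 and 4 to 7 against CD44 Low, and stayed at 0 for CD44v6 against CD44 High. In RT-112 they ranged from 2 to 11, 2 to 14 and 4 to 11 against parental cells, from 3 to 8 and 3 to 6 against CD44 Low, and from 0 to 1 for CD44v6 against CD44 High. The differences between lines ranged from 2 to 8, 2 to 5, 0 to 4 and 3 to 6, and the parental comparison from 28 to 31. EGR2 and EGR3 had 0 counts in at least 1 J82 parental library.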
